A study of Rattus norvegicus with 12 samples.

Results

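Atrogin-1, the muscle RING finger (MuRF) ubiquitin ligases, the FoxO transcription factors, Klf15, and myostatin were examined in cultured adult rat ventricular myocytes (ARVMs) that overexpressed the nuclear receptor NR4A2. All transcript rows listed under Fbxo32, Trim63, Trim54, Trim55, Foxo1, Foxo3, Foxo4, Klf15, and Mstn were taken, which gave 1 RefSeq transcript for each of these 9 genes, out of 17301 gene names in the series. ARVMs came from the hearts of male Sprague Dawley rats, whose age is not given in the sources used here, and were kept on laminin in serum-free medium that contained insulin and the myosin inhibitor 2,3-butanedione monoxime. Control cells received Ad-GFP, an adenovirus that encodes eGFP, and the other cells received Ad-h-NR4A2, an adenovirus that carries the full-length human NR4A2 cDNA behind the CMV promoter. Each group had 6 samples, numbered 24 to 29 in both, which were transduced at an MOI of 50 and harvested for RNA after 48 h. The CMV promoter is not restricted to myocytes, the level of NR4A2 is set by the virus, and isolated cells in culture carry no load, which limits the cultures as a model of muscle wasting in an animal.

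Ubiquitin ligases choose the proteins that are tagged for degradation by the proteasome. Atrogin-1, encoded by Fbxo32, is an F-box protein that brings substrates to an SCF ligase, whereas MuRF1 (Trim63), MuRF2 (Trim55), and MuRF3 (Trim54) are RING-type ligases of the sarcomere. Atrogin-1 and MuRF1 are classic markers of muscle atrophy, and their genes are known targets of FoxO factors, which insulin and Akt signaling keeps out of the nucleus, and of the glucocorticoid receptor. Klf15 is itself a glucocorticoid-induced gene that limits cardiac hypertrophy and drives the use of amino acids and lipids, and myostatin, encoded by Mstn, is a secreted inhibitor of muscle growth.

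The stretch before the transcription start was looked up for the genes that fell. RefSeq promoter windows (250 bases before to 50 after the start, build GRCr8) were matched for 5 of the 9 genes, namely Trim63, Trim54, Foxo1, Foxo4, and Klf15. The 250 bases before the start are shown, 5′ to 3′ on the strand of the gene, for the 3 of these genes whose transcripts fell, and capitals mark the letters of the motifs searched. They lie at chr5:151816986-151817235 (plus strand) for Trim63, chr6:30978476-30978725 (minus strand) for Trim54, and chr4:124522765-124523014 (plus strand) for Klf15.
Trim63: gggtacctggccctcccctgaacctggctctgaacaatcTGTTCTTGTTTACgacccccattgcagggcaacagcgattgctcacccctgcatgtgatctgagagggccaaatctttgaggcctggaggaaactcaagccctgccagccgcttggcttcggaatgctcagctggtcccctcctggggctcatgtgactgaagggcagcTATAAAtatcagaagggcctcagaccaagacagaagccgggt
Trim54: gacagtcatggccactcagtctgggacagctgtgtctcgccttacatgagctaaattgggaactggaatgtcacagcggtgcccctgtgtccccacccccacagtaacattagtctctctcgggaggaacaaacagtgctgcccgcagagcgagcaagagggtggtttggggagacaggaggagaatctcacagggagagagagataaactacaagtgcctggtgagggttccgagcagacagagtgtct
Klf15: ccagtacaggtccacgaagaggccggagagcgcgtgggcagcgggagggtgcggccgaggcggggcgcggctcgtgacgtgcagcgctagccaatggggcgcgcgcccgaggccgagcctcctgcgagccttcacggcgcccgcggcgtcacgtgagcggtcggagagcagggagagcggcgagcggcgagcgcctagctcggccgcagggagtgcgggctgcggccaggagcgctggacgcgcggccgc
In the Trim63 window, the letters TGTTCT at positions -211 to -206, counted back from -1 at the last base before the start, were followed without a gap by TGTTTAC at -205 to -199. The latter is the FoxO element GTAAACA read from the other strand, which 3.78% of 33469 rat promoter windows of the same length hold on either strand. The former is AGAACA, one side of the glucocorticoid element, read from the other strand, and it occurs in 20.7% of windows. TATAAA was found at -42 to -37 of Trim63 and in 14.2% of windows. The NR4A monomer element AAAGGTCA (1.43% of windows) was searched on both strands too. So was the whole glucocorticoid element, in which AGAACA and TGTTCT stand 3 bases apart (0.0149%). Neither was found letter for letter in the 5 windows. In Trim63, however, the letters tgaaca stood 3 bases before TGTTCT and differed from AGAACA only in the first letter. How many windows hold such a near match was not counted. The windows of Trim54, Foxo1, Foxo4, and Klf15 held none of the motifs searched, which says only that these letters are absent from the 300 bases.

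Nr4a2 was higher in each Ad-h-NR4A2 sample (445 to 592 FPKM) than in any Ad-GFP sample (0.626 to 1.40 FPKM), as the labels say, although reads of the human transgene enter this value only where they match the rat sequence. The depth recovered from the low values was 18795952 to 28001037 fragments per sample. FPKM, the deposited unit, are fragments scaled to the length of the transcript and the fragments of the sample, so that levels may be compared between genes. Of the ventricular myocyte markers, all 8 were tested. At an adjusted p below 0.05, 5 were lower and none higher, where 21.7% of all tested genes were lower and 19.3% higher. Their summed level was 49604 to 59131 FPKM in Ad-GFP and 42230 to 52431 FPKM in Ad-h-NR4A2 samples. Summed fibroblast (9.12 to 30.4 and 5.84 to 27.1 FPKM), endothelial (7.75 to 26.98 and 6.85 to 26.5 FPKM), and smooth muscle markers (11.7 to 24.3 and 8.78 to 21.0 FPKM) overlapped between groups. Of these lists, 1 of 7, 0 of 7, and 1 of 5 tested genes passed the adjusted p, both of them lower. Col1a2, a fibroblast collagen listed with 2 transcripts, was at 0 in all samples. The 7 tested fibroblast markers, among them the collagen genes Col1a1 and Col3a1, were above 0 in all samples. Whether the 0 of Col1a2 reflects its RNA or the estimate was not tested. The summed macrophage markers were higher in Ad-h-NR4A2 samples (39.0 to 46.1 against 6.41 to 17.3 FPKM), where 2 of 3 tested genes rose. Most of that sum was Csf1r, whereas Ptprc, C1qa, C1qb, and Aif1 were listed at 0 in at least 1 sample and therefore not tested. The 7 skeletal muscle fiber markers, of which Tnnt3 was at 0 in all samples, summed to 0.419 to 1.19 and 0.177 to 0.805 FPKM. The 5 adipocyte markers summed to 0.0539 to 0.158 and 0.0477 to 0.374 FPKM. In bulk samples, fewer cells of a type and less RNA per cell cannot be told apart, and the part of these markers in the results that follow was not tested.

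With NR4A2, the 4 ligase genes and Klf15 fell, Foxo1 and Foxo3 rose, Foxo4 did not pass the test, and Mstn was close to undetected in both groups. Groups were compared with limma on log2(FPKM + 0.1) over 10950 genes that were above 0 in all samples, with Benjamini-Hochberg adjustment. Among the 8 members tested, 5 were lower at an adjusted p below 0.05, where 21.7% of all tested genes were lower, and 2 were higher, where 19.3% were higher. With a ratio of mean FPKM of at least 1.5 as a second limit, that of the study, 4 members were lower (7.24% of all genes) and 0 were higher (7.94%). The groups did not overlap for 4 members that were lower in Ad-h-NR4A2 samples (10.6% of all genes) and for 1 that was higher (10.9%). The median log2 fold change over all tested genes was -0.02.

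**Figure D1:**
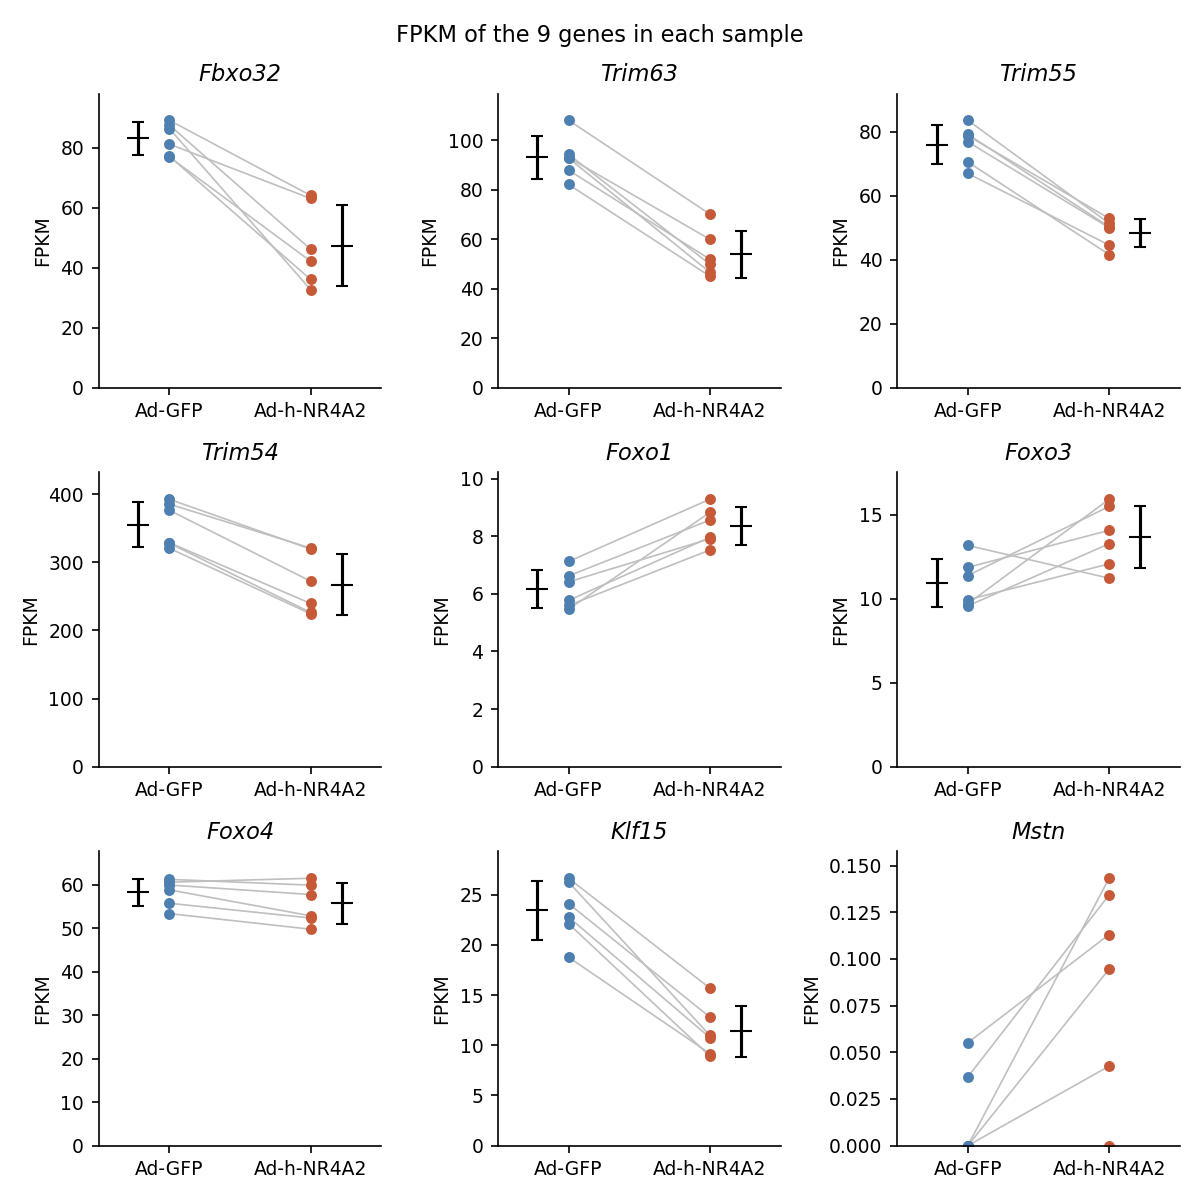
FPKM of each of the 9 genes (linear axes from 0) in 6 Ad-GFP (blue) and 6 Ad-h-NR4A2 (orange) ARVM samples, with grey lines joining same-numbered samples and black bars for the mean ± SD of a group, left out for Mstn. Fbxo32, Trim63, Trim55, and Klf15 of all Ad-h-NR4A2 samples lie below all Ad-GFP samples, Foxo1 lies above, and the other genes overlap.

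Among the ligases, Fbxo32 (NM_133521, chr7:98669144-98701551 of Rn5, the build of the files) was measured at 77.0 FPKM in the lowest Ad-GFP sample, a median of 83.9, and 89.2 in the highest. In Ad-h-NR4A2 samples the lowest value was 32.7, the median 44.2, and the highest 64.1 FPKM. No Ad-h-NR4A2 sample reached the Ad-GFP range, and the spread was wider with NR4A2 (SD 13.4, n = 6) than without (SD 5.37, n = 6). The mean decreased by 43.0%, or by 0.85 on the log2 scale (SE 0.15, adjusted p = 4.71e-04). Fragments on the transcript numbered 1461 to 2169 in Ad-GFP and 636 to 1475 in Ad-h-NR4A2 samples, so that counting error was below the spread between samples.

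Trim63 (NM_080903, chr5:156292566-156306092 of Rn5), which encodes MuRF1, a ligase for myosin heavy chains, ranged from 82.1 to 108 FPKM in Ad-GFP samples (median 92.8). In Ad-h-NR4A2 samples it ranged from 45.0 to 70.1 FPKM (median 50.9). The ranges were apart, and the mean decreased by 42.0% (log2 fold change -0.80, SE 0.10, adjusted p = 3.03e-05). Trim63 thus fell to nearly the same degree as Fbxo32, with a smaller SE on the log2 scale (0.10 against 0.15). Its SD was smaller than that of Fbxo32 in Ad-h-NR4A2 samples (9.49 against 13.4 FPKM) but larger in Ad-GFP samples (8.64 against 5.37 FPKM).

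Trim55 (NM_001012218, chr2:124140061-124182032 of Rn5) encodes MuRF2, which binds microtubules and titin in addition to its ligase function. Its level was 66.9 FPKM in the lowest, 77.7 at the median, and 83.5 in the highest Ad-GFP sample, and 41.6, 50.1, and 52.9 FPKM in Ad-h-NR4A2 samples. The ranges did not overlap, and Trim55 had the smallest SE of the ligase genes (log2 fold change -0.65, SE 0.07, adjusted p = 6.53e-06).

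Trim54 (NM_001013217, chr6:36419744-36439076 of Rn5) encodes MuRF3, which stabilizes microtubules during muscle differentiation, and it was the most abundant member in both groups. It ranged from 321 to 393 FPKM in Ad-GFP samples (median 353) and from 225 to 321 FPKM in Ad-h-NR4A2 samples (median 256). The ranges touched, because Ad-h-NR4A2 sample 28 was slightly higher than the lowest Ad-GFP sample. The change by -0.42 on the log2 scale (SE 0.10, adjusted p = 0.00398) was smaller than the ratio limit of 1.5 requires, and the mean was lower by a ratio of 0.752. All 6 same-numbered pairs were lower with NR4A2 for each of the 4 ligase genes.

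The summed level of the 3 MuRF transcripts was 524 ± 37.2 FPKM without NR4A2 and 369.6 ± 54.0 FPKM with NR4A2 (SD, n = 6 each), and the sums did not overlap (lowest 487.8 against highest 442.6). Trim54 made up 67.7% ± 2.13 of this sum in Ad-GFP and 72.1% ± 1.94 in Ad-h-NR4A2 samples. Trim63 made up 17.7% ± 1.21 and 14.6% ± 0.986, and Trim55 14.5% ± 1.59 and 13.3% ± 1.97 (SD, n = 6 each). The shares follow from the values above and were not tested.

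Fold changes of single pairs were uneven between pairs. For Fbxo32, the ratio of Ad-h-NR4A2 to Ad-GFP was 0.777, 0.527, 0.548, 0.378, 0.719, and 0.467 in pairs 24 to 29. Pairs 24 and 28 were the least lowered, and they were also the 2 least lowered pairs for Trim63, Trim55, Trim54, and Klf15. This held for 5 of the 5 members that fell and for 24.04% of the 2371 genes that fell in all, a comparison made after the values were seen. For Trim55, the pair ratios lay close together, from 0.589 to 0.672.

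**Figure D2:**
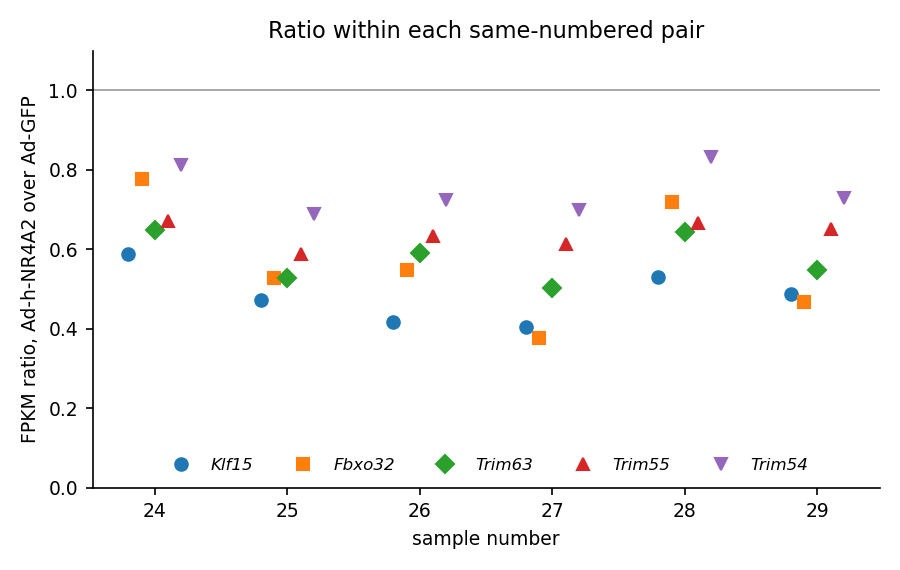
Ratio of FPKM in the Ad-h-NR4A2 sample to FPKM in the same-numbered Ad-GFP sample (linear axis from 0, line at 1) for the 5 members that fell, 1 point per gene and pair, for sample numbers 24 to 29. All points lie below 1, with Fbxo32 spread from 0.378 to 0.777 and Trim55 from 0.589 to 0.672.

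None of the 3 FoxO transcripts was called lower with NR4A2. Foxo1 (NM_001191846, chr2:161140308-161215605 of Rn5), a nuclear factor that activates both atrophy ligase genes when insulin signaling is low, ranged from 5.47 to 7.13 FPKM in Ad-GFP samples (median 6.10). In Ad-h-NR4A2 samples it ranged from 7.52 to 9.29 FPKM (median 8.26). All Ad-h-NR4A2 samples were above all Ad-GFP samples, and Foxo1 rose by 0.43 on the log2 scale (SE 0.08, adjusted p = 7.78e-04). The ratio of means was 1.35 and so did not reach the limit of 1.5. The transcript was low in fragments, with 252 to 433 in Ad-GFP and 436 to 514 in Ad-h-NR4A2 samples.

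Foxo3 (NM_001106395, chr20:48112118-48202608 of Rn5), a main activator of atrogin-1 and of autophagy genes in muscle, was 9.57 FPKM in the lowest, 10.7 at the median, and 13.2 in the highest Ad-GFP sample. The corresponding values with NR4A2 were 11.2, 13.7, and 15.9 FPKM. The ranges overlapped, and in 5 of 6 pairs the Ad-h-NR4A2 sample was higher, with pair 24 the exception (ratio 0.852). Foxo3 rose by 0.32 on the log2 scale (SE 0.10, adjusted p = 0.0247), the weakest call among the members. It missed the threshold with no filter on low values (adjusted p = 0.0536). It also missed it without pair 26 (adjusted p = 0.0750), 27 (0.109), or 29 (0.0771), without Ad-GFP sample 25 (0.0538), 27 (0.0529), or 29 (0.0539), and without Ad-h-NR4A2 sample 26 (0.0575) or 27 (0.0578).

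Foxo4 (NM_001106943, chrX:72008079-72014636 of Rn5), a FoxO factor known to be plentiful in muscle, ranged from 53.4 to 61.2 FPKM in Ad-GFP (median 59.4) and from 49.8 to 61.5 FPKM in Ad-h-NR4A2 samples (median 55.3). The ranges overlapped, and the difference did not pass the test (log2 fold change -0.07, 95% interval -0.19 to 0.06, adjusted p = 0.376). Foxo4 was the most abundant FoxO transcript, with 77.3% ± 1.20 of the summed FPKM of the 3 factors in Ad-GFP and 71.6% ± 2.80 in Ad-h-NR4A2 samples (SD, n = 6 each). The share of Foxo1 was 8.21% and 10.8%, and that of Foxo3 14.5% and 17.6%, while the sum was 75.4 ± 4.18 and 77.7 ± 5.10 FPKM (SD, n = 6).

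Klf15 (NM_053536, chr4:186906050-186918645 of Rn5) changed most among the members tested. It ranged from 18.8 to 26.6 FPKM in Ad-GFP samples (median 23.4) and from 8.92 to 15.7 FPKM in Ad-h-NR4A2 samples (median 10.9). No samples overlapped, all 6 pairs were lower with NR4A2, and the ratio of means was 0.486. On the log2 scale it fell by 1.05 (SE 0.13, adjusted p = 2.64e-05).

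Mstn (NM_019151, chr9:52977371-52982198 of Rn5), the only member not tested with the others, was listed at 0 in 4 of 6 Ad-GFP samples and at 0.0551 (sample 25) and 0.0368 FPKM (sample 29) in the others, each worth 1 fragment. In Ad-h-NR4A2 samples it was 0 in sample 28 and 0.0426 to 0.143 FPKM in the others, worth 1 to 3 fragments. A value of 0 at this depth allows up to 3 fragments and may also be a failed estimate. Summed over samples, 2 fragments stood against 12, a depth-adjusted ratio of 5.99 with a 95% exact interval of 1.33 to 55.1 that covers counting error only. Fitted with all 17301 gene names and no filter, Mstn did not pass the test (log2 fold change 0.66, SE 0.23, adjusted p = 0.0569).

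As a second test, each member was put through all 924 ways to divide the samples into 6 and 6 (exact permutation test, two-sided). These regroupings treat all samples as exchangeable and ignore the same-numbered pairs, so the p does not account for the pairing. The p was 0.00216, the smallest possible, for Fbxo32, Trim63, Trim55, Foxo1, and Klf15. It was 0.00433 for Trim54, 0.0195 for Foxo3, and 0.266 for Foxo4 in the same exact permutation test, and 0.0303 for Mstn. When same-numbered samples were treated as paired (replicate block), no call of a member changed. The interval of Foxo4 in the replicate block was -0.13 to -0.0037 on the log2 scale, below 0, and its adjusted p was 0.0655.

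**Figure D3:**
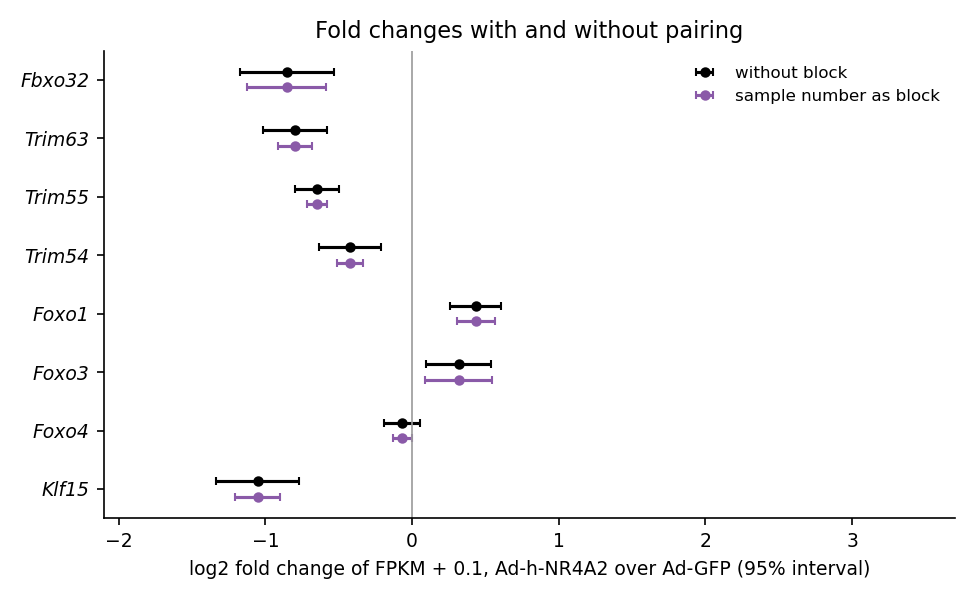
Log2 fold change of FPKM + 0.1, Ad-h-NR4A2 over Ad-GFP, for the 8 members tested, without and with the sample number as replicate block. Points are estimates and bars 95% intervals, which lie below 0 for the 4 ligase genes and Klf15, above 0 for Foxo1 and Foxo3, and for Foxo4 from -0.19 to 0.06 without and from -0.13 to -0.0037 with the block.

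The order of the levels changed with NR4A2. In Ad-GFP samples the order of mean FPKM was Trim54, Trim63, Fbxo32, Trim55, Foxo4, Klf15, Foxo3, Foxo1, and Mstn. The ranges of Trim63 and Fbxo32 overlapped, as did those of Fbxo32 and Trim55, and all other neighbors were apart. In Ad-h-NR4A2 samples Foxo4 stood after Trim54 in the order, and its range overlapped that of Trim63, which overlapped Trim55, which overlapped Fbxo32. Foxo3 stood above Klf15 and Klf15 above Foxo1, each overlapping its neighbor, whereas in Ad-GFP samples Klf15 was above Foxo3 without overlap.

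**Figure D4:**
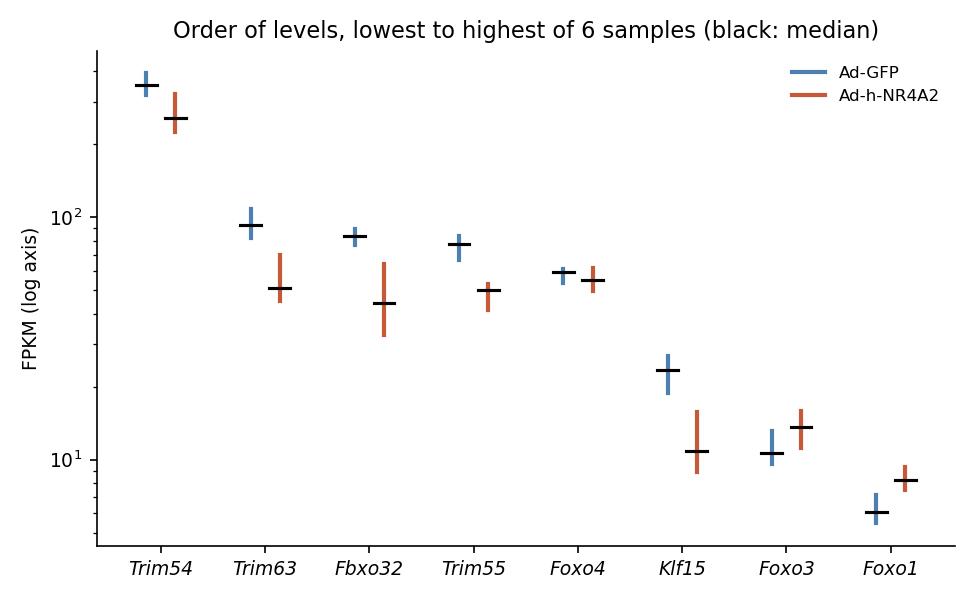
FPKM (log axis) of the 8 members above 0 in all samples, ordered by their mean in Ad-GFP samples, with a bar from the lowest to the highest of 6 samples per group (blue, Ad-GFP; orange, Ad-h-NR4A2) and a black line at the median. In Ad-GFP samples Foxo4 lies below the 4 ligase genes, and with NR4A2 its bar overlaps that of Trim63.

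Genes whose variation between samples was most like that of Fbxo32 and Trim63 were sought among the 8978 tested genes whose mean FPKM was 1 or more, after the mean of each group was removed. Over the 12 samples, Fbxo32 was most like Kcnj11, the pore subunit of the ATP-sensitive potassium channel (Pearson's r = 0.940, Spearman's rho = 0.909), Zfyve1, which encodes a protein of early autophagosome formation (0.922 and 0.930), and the helicase subunit Ascc3 (0.921 and 0.972). Trim63 was most like the folliculin gene Flcn (r = 0.982, rho = 0.986), Cand2, a regulator of cullin ligases (0.976 and 0.986), and the supervillin gene Svil (0.972 and 0.937). Between members, Trim63 and Klf15 had r = 0.910 (rho = 0.846) and Trim63 and Fbxo32 r = 0.819 (rho = 0.790). Foxo4 had r = 0.820 (rho = 0.895) for Trim63 and r = 0.733 (rho = 0.678) for Fbxo32. Trim55 had r = -0.25 (rho = -0.29) for Fbxo32 and r = 0.090 (rho = 0.042) for Trim63. These are descriptions over samples that share libraries, and a like pattern between samples did not mean a like response, since Ascc3 rose with a log2 fold change of 1.87.

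Other genes of the pathways were taken from lists and are described by how many passed. For comparison, 19.3% of all tested genes were higher and 21.7% lower by the adjusted p. With the ratio limit, these shares were 7.94% and 7.24%. Among 14 listed ligases of muscle and SCF subunits, 2 were higher and 3 lower at an adjusted p below 0.05 (median log2 fold change 0.02), and 1 in each direction passed the ratio limit. Traf6, a ligase that takes part in muscle wasting, rose from a mean of 5.30 to 8.76 FPKM (log2 fold change 0.70), and Mul1, a mitochondrial ligase, fell from 17.2 to 11.1 FPKM (log2 fold change -0.63). Of the SCF partners of atrogin-1, Cul1 had a log2 fold change of -0.18 and Rbx1 of 0.18. None of 8 ubiquitin-conjugating enzymes passed the ratio limit, and 1 was higher and 3 lower by the adjusted p (median -0.10).

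Of 25 FoxO target genes, 4 rose and 8 fell by the adjusted p (median log2 fold change -0.09), where 19.3% of all tested genes rose and 21.7% fell. With the ratio limit, 1 was higher and 3 were lower. Pik3ip1, an inhibitor of phosphatidylinositol 3-kinase, fell from 20.9 to 7.41 FPKM (log2 fold change -1.49), and Cdkn1a, the cell cycle inhibitor p21, fell from 231 to 147 FPKM (-0.66). Trib1, a pseudokinase, had a log2 fold change of -0.67 (adjusted p = 0.0477), and the call was lost in 17 of 27 alternatives. Klf2, a Krüppel-like transcription factor, rose from 1.06 to 1.92 FPKM (log2 fold change 0.79). Of targets under the ratio limit, Gabarapl1 (log2 fold change 0.47) and Bnip3l (0.25), which act in autophagy, and the sestrin gene Sesn3 (0.52) rose. The catalase gene Cat (-0.49), the other sestrin gene of the list, Sesn1 (-0.44), Gadd45a (-0.32), the mitophagy gene Bnip3 (-0.28), and the cathepsin gene Ctsl (-0.26) fell.

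Among 23 kinases and cofactors upstream of FoxO, 1 was higher and 6 were lower by the adjusted p (median log2 fold change -0.06). The shares over all tested genes were 19.3% and 21.7%. Sgk1, a kinase that phosphorylates FoxO factors and holds them in the cytoplasm, rose from 11.4 ± 1.45 to 33.0 ± 11.7 FPKM (SD, n = 6), or by 1.45 on the log2 scale (SE 0.21, adjusted p = 8.56e-05), for the most abundant of its 3 transcripts. Ad-GFP samples did not exceed 13.4 FPKM, and Ad-h-NR4A2 samples started at 18.3 FPKM. Prkaa2, the α2 subunit of AMP kinase, fell from 119 to 78.3 FPKM (log2 fold change -0.60), and Akt1, the kinase that inactivates FoxO factors downstream of insulin, had a small decrease (-0.14).

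Genes of the glucocorticoid response were looked at next. Nr3c1, the glucocorticoid receptor itself, fell from 32.5 to 26.5 FPKM (log2 fold change -0.30), and of 12 genes in its list 2 were higher and 4 lower (median -0.18), where 19.3% and 21.7% of all tested genes were. Tsc22d3, which encodes the glucocorticoid-induced leucine zipper, had means of 23.96 FPKM without and 60.1 FPKM with NR4A2 and rose by 1.32 on the log2 scale (SE 0.07, adjusted p = 1.22e-08), opposite in direction to Klf15. The metallothionein genes Mt2A and Mt1a, which encode metal-binding proteins, fell from 1311 to 525 and from 910 to 409 FPKM (log2 fold changes -1.32 and -1.18). Whether these related genes share reads was not tested. Of 12 tested KLF15 targets in amino acid and lipid use, 0 passed the ratio limit, with 3 higher and 1 lower by the adjusted p (median -0.02). The branched-chain keto acid dehydrogenase subunit gene Bckdhb was among those that rose (log2 fold change 0.48).

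In the myostatin pathway, 4 of 18 genes rose and 7 fell by the adjusted p (median log2 fold change -0.05). Over all tested genes, 19.3% rose and 21.7% fell. Fst, which encodes follistatin, a secreted protein that binds and blocks myostatin and activins, ranged from 0.0524 to 0.294 FPKM in Ad-GFP samples (median 0.226) and from 1.27 to 4.17 FPKM in Ad-h-NR4A2 samples (median 3.27). The groups were far apart (log2 fold change 3.37, SE 0.29, adjusted p = 8.95e-07), although Ad-GFP values rest on 1 to 7 fragments. Tll1, a protease of the tolloid family, members of which release myostatin from its propeptide, rose from 1.14 to 5.63 FPKM (log2 fold change 2.22). The receptor genes Acvr2a and Acvr1b fell from 10.7 to 7.03 FPKM (-0.60) and from 9.19 to 6.18 FPKM (-0.56), the latter under the ratio limit. Among the other receptor genes of the list, Tgfbr1 fell less (-0.27). Acvr2b, with low means of 0.789 FPKM without and 0.752 FPKM with NR4A2, did not pass the test (-0.02).

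Of 17 genes for proteins that atrogin-1 and the MuRF ligases are known to bind or mark, 2 rose and 8 fell. By the same adjusted p, 19.3% of all tested genes rose and 21.7% fell. The median log2 fold change of the list was -0.22. The median was -0.09 after quantile normalization. Mybpc3, the gene of cardiac myosin-binding protein C, fell from 1002 to 667 FPKM (log2 fold change -0.59), and Prkce, the gene of protein kinase Cε, fell from 7.36 to 4.69 FPKM (-0.66). Myh7, the β-myosin heavy chain gene, fell from 273 to 154 FPKM (-0.86, adjusted p = 0.0146), and missed the threshold without pair 25 (adjusted p = 0.0539), 27 (0.0600), or 29 (0.0618). Several of these genes, among them Myh6 and Tnnt2, are also myocyte markers, so that this list and the marker list are not independent. RNA levels do not show how much of the proteins was degraded.

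**Figure D5:**
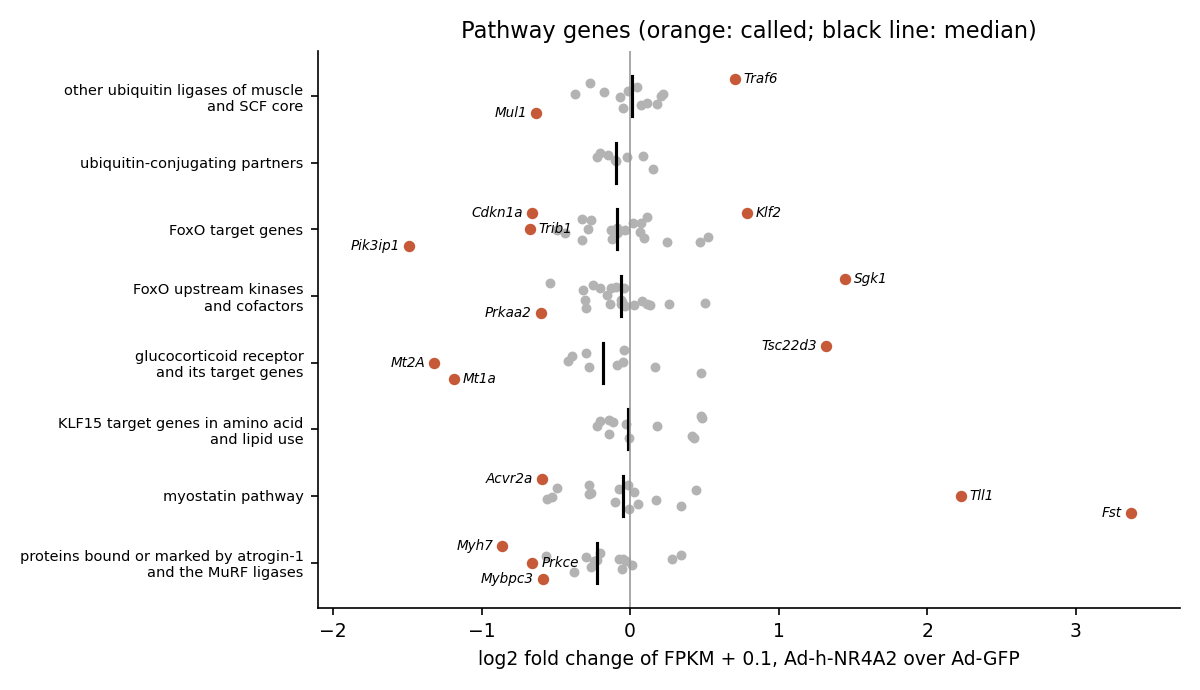
Log2 fold change of FPKM + 0.1, Ad-h-NR4A2 over Ad-GFP, of each tested gene (1 point) in 8 pathway lists, with the list median as a black line. Genes past an adjusted p of 0.05 and a ratio of 1.5 in either direction are orange and named; list medians lie between -0.22 and 0.02, and Fst has the highest value at 3.37.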

How the data were processed

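RNA from 12 ARVM cultures was sequenced in stranded, paired-end libraries in 1 run. Per the labels, the authors aligned reads with STAR and ran Cufflinks, and the paper names the Rn5 build. The deposited FPKM, as the authors calculated them, cover 18752 RefSeq transcripts per sample; whether strand was used in counting is not given in the sources used here, and no other listed transcript overlaps a member. Confidence limits equal to the FPKM in 225016 of 225024 values were not used. Groups came from the labels. The most abundant transcript stood for a gene name. The 10950 genes above 0 in all samples were fitted on log2(FPKM + 0.1) with limma 3.58.1 (R 4.3.3, eBayes with trend, two-sided, unpaired). The code was first tested on simulated data. The study names unpaired t-tests for its pairwise comparisons, and took differential expression from Cufflinks, for which it does not state whether samples were paired. The pseudocount understates changes of low genes. Depth was recovered from values of up to 6 fragments, of which 99.2% to 99.8% per sample were whole within 0.05, for transcripts of at least 800 nucleotides, after the fragment length was subtracted; fragment numbers cover counting error only.

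Deviations from the group mean correlated at 0.347 to 0.623 between same-numbered samples, and the study describes independent experiments with different rats, so that numbers were taken to pair samples; what a number stands for is not given in the labels. Alternatives were pseudocounts of 1 and 0.01, quantile normalization, no filter, the TPM scale, only genes averaging 1 FPKM or more, no trend, the replicate block, summed transcripts, other ratio limits, and each sample or pair left out. Named genes were the members, up to 4 genes past both limits in each direction per pathway list, list genes set beside a member, and the 3 genes most like Fbxo32 and Trim63. The members and lists were chosen with earlier results of these data known. Cul1, Rbx1, Gabarapl1, Bnip3l, Sesn3, Cat, Sesn1, Gadd45a, Bnip3, Ctsl, Akt1, Bckdhb, and Acvr1b were named, the TATAAA and AGAACA motifs were searched, and single pairs were compared after seeing the data. Plots were drawn in Matplotlib 3.10.9, and permutations were run in Python 3.11.15 with SciPy 1.17.1. The q values of Cufflinks were not recalculated.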

Additional observations from a re-analysis of the deposited data

Results flagged for a closer look

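The 9 members and the 17 named pathway genes were examined in each group for a sample that lay far from the other 5, as the gap to its nearest neighbor divided by the range of the group, against Dixon's critical value. Of 52 groups, 2 passed the limit, where chance passes about 1 in 20, and neither was a member. For Acvr2a, Ad-GFP sample 28 had 12.6 FPKM and the others 9.81 to 10.7 FPKM (gap over range 0.674). For Pik3ip1, Ad-h-NR4A2 sample 24 had 10.2 FPKM and the others 6.01 to 7.41 FPKM (gap over range 0.668).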

How the results depend on the processing

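The number of genes past both limits was 1662, 803 at a ratio of at least 2, and 4484 with no limit on the ratio, and it was 1528 to 1769 when 1 sample or pair was left out. With the replicate block, in which same-numbered samples were taken as pairs, 1825 genes passed (889 lower and 936 higher). Every member tested kept its direction in all alternatives, and the calls of all but Foxo3 were kept. Foxo3 lost its call with no filter on low values (log2 fold change 0.32, adjusted p = 0.0536) and in 8 of 18 settings with 1 sample or pair left out, where its log2 fold change was 0.24 to 0.43. In those settings the log2 fold change was -0.95 to -0.74 for Fbxo32, -0.88 to -0.75 for Trim63, -0.68 to -0.61 for Trim55, -0.48 to -0.38 for Trim54, 0.38 to 0.48 for Foxo1, -0.10 to -0.04 for Foxo4, and -1.15 to -0.99 for Klf15. Their total of pathway genes past both limits was 13 to 19, and the median of all genes moved by less than 0.1 between scalings. Depth limits Mstn, which rests on 0 to 3 fragments per sample.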

Other observations

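Samples 24, 26, and 28 differed from samples 25, 27, and 29 in both groups for 3 of the 8 members tested, a pattern seen in the data for which the labels give no reason. Trim54, Foxo4, and Klf15 were higher in each of the first 3 samples than in any of the other 3, in Ad-GFP and in Ad-h-NR4A2 cells alike. The same held for 899 of 10950 tested genes (8.21%), and 235 genes (2.15%) were lower in that way. For Trim54 the Ad-GFP values were 393, 377, and 386 FPKM in samples 24, 26, and 28 and 328, 321, and 329 FPKM in samples 25, 27, and 29. For Klf15 they were 26.6, 26.3, and 24.1 FPKM against 22.8, 22.1, and 18.8 FPKM. What sets these samples apart was not tested.

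The macrophage marker Csf1r, the receptor of colony-stimulating factor 1, rose from 10.1 ± 3.87 to 40.2 ± 2.35 FPKM (SD, n = 6; log2 fold change 2.06, adjusted p = 2.15e-06 from limma). Cd14, a receptor for lipopolysaccharide, rose from 0.222 to 1.19 FPKM (log2 fold change 1.99), whereas Cd68 had a log2 fold change of 0.05. These genes were singled out after their values were seen.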
